A study of Mus musculus with 64 samples.

Results

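The genes described here are 10 regulators of the integrated stress response (ISR), taken by symbol from the table of counts of mouse pancreatic tumor cells: Atf4, Atf3, Atf5, Ddit3, Cebpb, Trib3, Chac1, Ppp1r15a, Sesn2 and Ddit4. They are 10 of the 39017 genes in that table, each symbol matched a single row, and all 10 passed the filter on low counts. RNA from 8 tumor lines of a C57BL/6 mixed strain background was sequenced. The clones E, H, K, M, N, T and V were subcloned from the pancreatic tumor of a genetically engineered mouse whose alleles include Trp53+/R172H and Pdx1-Cre, so both cultures of every clone share that genotype, with Cre driven by the pancreatic Pdx1 promoter, and each clone is a single line. The study calls E, H and V group 1 and K, M, N and T group 2, after their metabolite pools. The KPC1 line is not among the clones that it grouped. From every line 4 mono-culture libraries were made, and 4 more of GFP-positive tumor cells that were resolved by FACS from fibroblasts after 48 h of direct coculture, which gave 64 libraries. No treatment was given in either culture, and whether mono-cultured cells also passed through the sorter was not stated in the sources used here.

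The ISR slows the start of protein synthesis when a kinase (GCN2, PERK, PKR or HRI) phosphorylates the translation factor eIF2α. Under those conditions the mRNA of ATF4 is translated more, because short upstream reading frames then hold back its main reading frame less, and ATF4 switches on genes for amino acid supply, redox balance and, when stress persists, cell death. RNA sequencing reads the level of the mRNA and not this translational step, so ATF4 protein was not measured in these libraries. In pancreatic cancer the pathway is known for its link to amino acid shortage and to asparagine synthetase, a classical ATF4 target.

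Among the members, Atf4, Atf3, Atf5, Ddit3 and Cebpb encode basic leucine zipper transcription factors: ATF4 is the main effector, ATF3 a stress-inducible factor of the same family, ATF5 a factor linked to mitochondrial stress, DDIT3 (CHOP) a factor of prolonged stress, and CEBPB a dimer partner of ATF4 and CHOP. Trib3 encodes a pseudokinase that binds ATF4 and restrains it, Chac1 an enzyme that degrades glutathione, and Ppp1r15a (GADD34) the regulatory subunit of the phosphatase that returns eIF2α to its active form. Sesn2 and Ddit4 (REDD1) encode inhibitors of the growth kinase complex mTORC1. On GRCm38, Atf4 lies on chromosome 15 (80255184 to 80257541, plus strand), Atf3 on chromosome 1 (191170296 to 191218039, minus strand), Atf5 on chromosome 7 (44812256 to 44816658, minus strand), Ddit3 on chromosome 10 (127290774 to 127296288, plus strand) and Cebpb on chromosome 2 (167688915 to 167690418, plus strand). Trib3 lies on chromosome 2 (152337422 to 152344032, minus strand), Chac1 on chromosome 2 (119351229 to 119354381, plus strand), Ppp1r15a on chromosome 7 (45522916 to 45526268, minus strand), Sesn2 on chromosome 4 (132492032 to 132510501, minus strand) and Ddit4 on chromosome 10 (59949669 to 59951834, minus strand).

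The promoters that hold a binding motif of the ATF family are shown because 3 of the genes whose levels are described below carry one. The motifs searched on both strands were TGATGNAA, the CCAAT-enhancer binding protein–ATF response element, TGACGTCA, the cAMP response element, and the endoplasmic reticulum stress element, CCAAT and CCACG with 9 bases of any kind between them, in the 250 bases before each start in RefSeq (GRCm38.p6), with 11 promoters for the 10 members. The first motif was found in the promoters of Atf3 (chr1:191183334-191183583, minus strand) and Chac1 (chr2:119350992-119351241, plus strand), in both as TTGCATCA on the gene's strand, at positions -110 to -103 and -193 to -186 from the start. The second was found in that of Ppp1r15a (chr7:45526269-45526518, minus strand) at -12 to -5, and the third in none of the 11. Of 32851 promoters of the same length, 3.45% held the first motif, 1.55% the second and 0.113% the third. The 3 sequences follow, 5′ to 3′ on the strand of the gene, with the matched motif in capitals.
Atf3: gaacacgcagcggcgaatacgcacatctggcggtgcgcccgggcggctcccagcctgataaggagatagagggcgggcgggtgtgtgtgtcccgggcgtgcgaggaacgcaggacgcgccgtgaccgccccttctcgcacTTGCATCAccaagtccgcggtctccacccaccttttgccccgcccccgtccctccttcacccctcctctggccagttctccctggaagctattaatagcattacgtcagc
Chac1: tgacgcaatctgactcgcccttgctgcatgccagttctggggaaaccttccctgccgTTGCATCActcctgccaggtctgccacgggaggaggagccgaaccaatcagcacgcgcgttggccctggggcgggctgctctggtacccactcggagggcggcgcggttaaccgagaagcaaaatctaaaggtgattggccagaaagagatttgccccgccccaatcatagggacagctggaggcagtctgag
Ppp1r15a: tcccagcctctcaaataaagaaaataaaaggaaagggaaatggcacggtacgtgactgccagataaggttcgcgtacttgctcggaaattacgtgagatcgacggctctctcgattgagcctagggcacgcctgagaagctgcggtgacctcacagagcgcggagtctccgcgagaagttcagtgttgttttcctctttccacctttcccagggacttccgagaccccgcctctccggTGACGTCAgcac

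Library totals were 1.12e+07 to 2.13e+07 counts, and every library correlated best with another of its own line and culture (64 of 64). Values per library are CPM, counts scaled to a common library size after TMM normalization. The tests across all genes were edgeR's quasi-likelihood tests with Benjamini-Hochberg adjustment, and a gene was called at an adjusted p under 0.1. Nothing in the labels says that the 4 libraries of a line came from separate cultures, so p-values within a line measure the spread between libraries, which may be technical. Tumor identity was checked with epithelial markers. Krt8 had a median of 903 CPM over the 64 libraries (lowest 256, highest 1718) and Krt18 of 1273 CPM. Medians of Tjp1, Krt19, Sox9 and Cdh1 were 520, 361, 202 and 75.6 CPM. Those of the keratin gene Krt7 and of Muc1 were only 2.1 and 2.02 CPM, and Epcam and Cldn4 were at or near 0 (highest 0.742 and 1.07 CPM). Of the immune and endothelial markers, Ptprc and Cd3e, which define immune cells, did not exceed 0.235 CPM, whereas Cd68, a lysosomal protein abundant in macrophages, had a median of 14.6 CPM (highest 57.5) and the endothelial receptor gene Kdr reached 10.6 CPM.

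Compared per length, as RPKM, Atf4 was the most abundant member in mono-culture, with a median over the 8 line means of 249 RPKM, followed by Cebpb at 75.9 and Ddit4 at 68 RPKM. Sesn2 was the least abundant at 4.46 RPKM and Atf3 the next at 7.65 RPKM. In coculture Atf4 was again highest at 524 RPKM, and Trib3, at 22.8 RPKM in mono-culture, was the next at 92.2 RPKM.

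The 8 lines differed in mono-culture in all 10 members, in a fit over all 64 libraries in which 95.1% of the 14134 genes tested also differed between lines. The count itself is therefore close to the background, and the size of the differences is what set the members apart in description: the ratio of the highest to the lowest line mean had a median of 4.95 over the 10 members, against 2.03 over the 10171 genes with a mean of at least 5 CPM. All 10 members had a ratio above that all-gene median. Clone M had the lowest mean of Atf4, Atf5, Trib3, Chac1, Sesn2 and Ddit4, and clone V that of Atf3, Ddit3, Ppp1r15a and Cebpb. Clone N had the highest mean of Atf3, Atf5, Ddit3, Sesn2, Ppp1r15a and Cebpb, KPC1 that of Atf4, Trib3 and Chac1, and clone H that of Ddit4.

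Of the transcription factors, Atf4 was at 183, 169.6, 314 and 207 CPM in the 4 mono-culture libraries of clone M, at 952, 666, 1075 and 953 CPM in clone N and at 969, 1111, 933 and 753 CPM in KPC1. The libraries of M lay below all those of N and KPC1, and the means of N and KPC1 did not differ (911 and 942 CPM, edgeR adjusted p = 0.852). The other lines had means between 325 (K) and 534 CPM (E). Of the 7 pairs of neighbours in the order of the 8 lines, 2 differed for Atf4: N from E (edgeR adjusted p = 0.000235) and K from M (edgeR adjusted p = 0.00473). For Ddit3, whose protein CHOP is a late-stage effector, clone V had 18.9, 17.6, 28.6 and 19.6 CPM and clone N 108, 62.3, 158 and 157 CPM, with no overlap. Atf3 varied as much within lines as between many of them: clone M had 4.12, 4.05, 58.9 and 50.7 CPM and clone N 21.1, 13.1, 50.3 and 63.8 CPM, so that replicates 3 and 4 lay far above replicates 1 and 2 in both. None of the 7 neighbouring pairs differed for Atf3, and the line means ran from 7.10 (V) to 37.1 CPM (N). Neighbours were set by ranking these same means, so they are the pairs with the smallest gaps. Of all 28 pairs of lines, 14 differed for Atf3 and 22 for Atf4.

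In the same 4 libraries of clone M the summed level of 20 immediate-early genes, which respond to handling and growth signals within minutes, was 2904, 2092, 6311 and 6791 CPM, again higher in replicates 3 and 4, and in clone N it was 1189, 2198, 1606 and 1938 CPM, without that order. The part of those genes in the Atf3 values was not tested.

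Chac1 and Trib3 had the widest range between lines. Chac1 was at 2.83, 2.38, 5.91 and 1.09 CPM in clone M and at 72, 138, 59.2 and 46.2 CPM in KPC1, a ratio of means of 25.8. Trib3 was at 12.1, 9, 17.7 and 3.71 CPM in M and at 197, 292, 189 and 104 CPM in KPC1, a ratio of 18.4. Both genes were thus lowest in the clone that was also lowest for Atf4 and highest in the line that was highest for it. Ppp1r15a spanned the least, from a mean of 25.5 (V) to 93.9 CPM (N). None of its 7 neighbouring pairs differed, but 15 of all 28 pairs of lines did. For the mTORC1 inhibitors, Sesn2 was at 8.83, 7.65, 9.39 and 5.23 CPM in M and 37.4, 23.9, 49.1 and 35.2 CPM in N, and Ddit4 at 53.6, 65, 55.8 and 57.5 CPM in M and 275, 265, 264 and 275 CPM in H. Ddit4 was the member with most separated neighbours, 3 of 7.

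**Figure D1:**
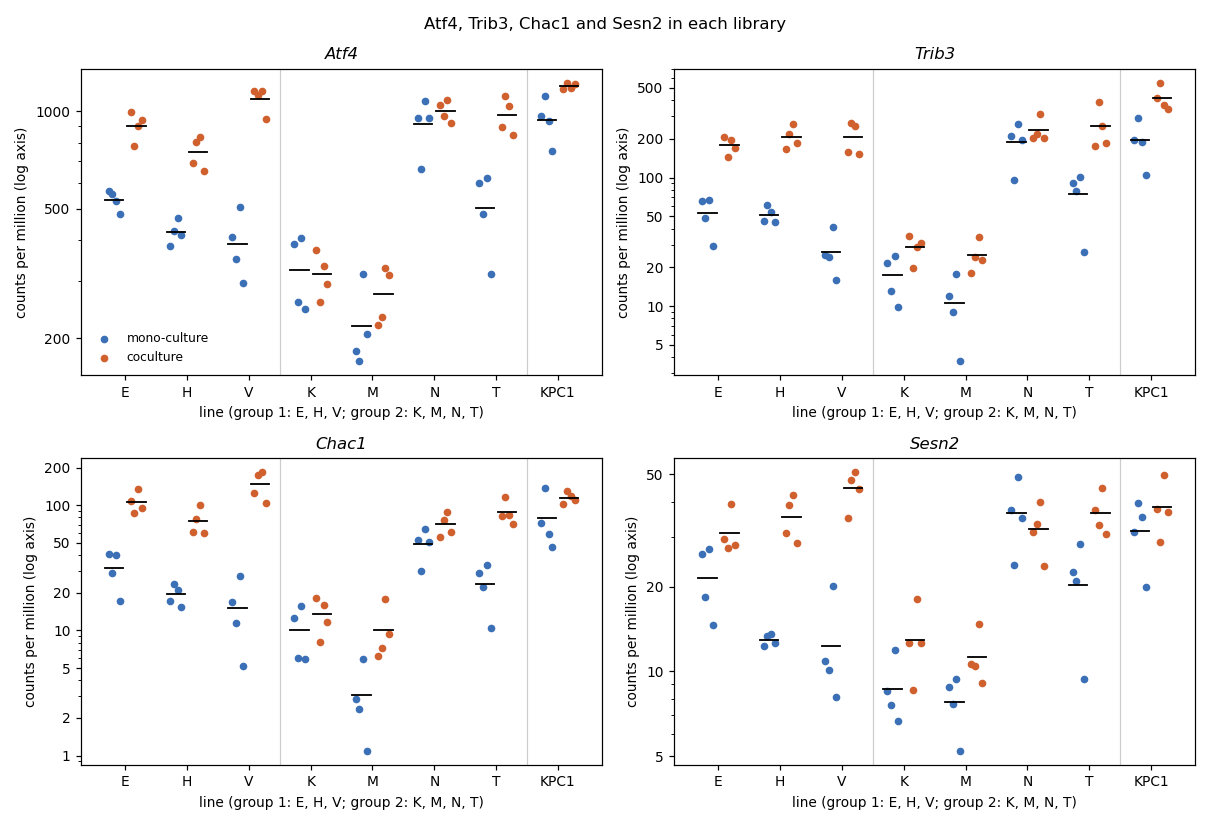
CPM (log axis) of Atf4, Trib3, Chac1 and Sesn2 in every library, for the 8 lines on the x axis, with mono-culture in blue and coculture in orange; each point is 1 library (n = 4 per line and culture) and each bar the mean. In clones E, H and V of group 1 and T of group 2 every coculture library of Atf4, Trib3, Chac1 and Sesn2 lies above every mono-culture library of the same clone. In K and N, both of group 2, the libraries of the cultures overlap for each of these genes.

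Coculture with fibroblasts was compared with mono-culture within each line. Coculture cells were sorted, and whether mono-cultured cells were is not stated. Contact with fibroblasts and sorting therefore cannot be told apart in what is called the response here. In bulk RNA, fewer cells that carry a transcript and less of it in each cell cannot be told apart. The number of members that rose was 9 of 10 in clone V, 8 in H, 8 in T, 6 in E, 4 in M, 4 in KPC1, 1 in N and 0 in K, where 2 had an unadjusted p under 0.05 and neither DESeq2 nor limma called any, against 3885 of 14134 genes at that unadjusted p. With the replicate block, 2 members were called in K. Members that fell numbered 2 in M, 1 each in E, N and T, and 0 in the other lines. The background of genes that rose was 30% in V, 21.4% in H, 31.5% in T, 32.1% in E, 21.6% in M, 20.1% in KPC1, 20% in N and 12.5% in K, and of genes that fell 31.5% in V, 22.6% in H, 30.7% in T, 29.2% in E, 17.3% in M, 19% in KPC1, 17.4% in N and 8.02% in K. In either direction, 61.5% of genes were called in V, 44% in H, 62.2% in T, 61.3% in E, 38.9% in M, 39.2% in KPC1, 37.4% in N and 20.5% in K. The median log2 fold change of the 10 members was 2.15 in V, 1.44 in H, 1.34 in T, 0.64 in E, 0.49 in KPC1, 0.41 in M, 0.25 in K and 0.062 in N, and that of all genes lay between -0.011 (H) and 0.034 (E). Atf4, Ddit3, Trib3, Chac1, Ppp1r15a and Sesn2 rose in each of E, H, V and T, a combination of lines picked after their values were seen, and 12% of all genes did so.

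**Figure D2:**
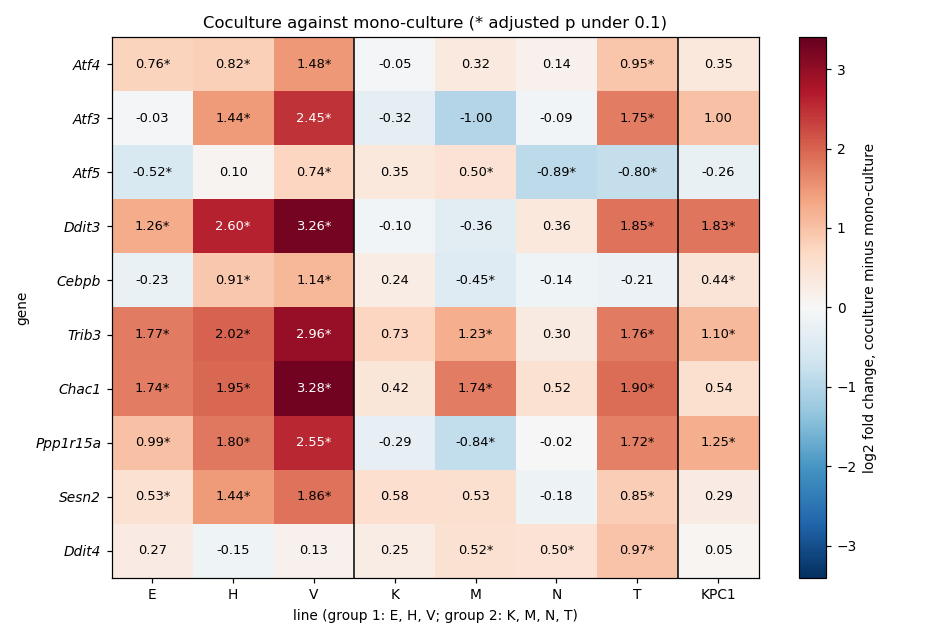
Log2 fold change of coculture against mono-culture for each of the 10 genes (rows) in each of the 8 lines (columns), from the fit over 64 libraries, with red for higher and blue for lower in coculture and an asterisk for an adjusted p under 0.1. Clone V holds the deepest red, up to 3.28 for Chac1, and clone K holds no asterisk.

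Atf4, Trib3, Chac1 and Sesn2 changed most in clone V. There Atf4 was at 409, 352, 509 and 295 CPM in mono-culture and 1152, 1122, 1151 and 945 CPM in coculture, and the libraries did not overlap (log2 fold change 1.48 ± 0.18 (SE), edgeR adjusted p = 9.32e-10). It also rose in T by 0.95 ± 0.17, in H by 0.82 ± 0.17 and in E by 0.76 ± 0.17 on the log2 scale (SE, n = 4 and 4). In K it was at 389.9, 259, 406 and 245 CPM in mono-culture and 374, 258, 333 and 294 CPM in coculture, with overlapping libraries and a log2 fold change of -0.045 ± 0.17 (SE, edgeR adjusted p = 0.908). In the remaining lines, M, N and KPC1, the difference was 0.32, 0.14 and 0.35 and did not pass the test, although in KPC1 all 4 coculture libraries lay above all mono-culture libraries. In M and N they overlapped.

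Trib3, the ATF4-binding pseudokinase, rose in more lines than any other member, 6 of 8, and Ppp1r15a also passed the test in 6, rising in 5 and falling in 1. In V Trib3 was at 24.8, 23.9, 41.5 and 16 CPM in mono-culture and 157, 266, 252 and 153 CPM in coculture (log2 fold change 2.96 ± 0.36 (SE), edgeR adjusted p = 1.33e-09). It rose from 66.1, 48.2, 66.9 and 29.5 to 208, 145, 196 and 170.1 CPM in E, with no overlap (log2 fold change 1.77 ± 0.34), and by 2.02 in H, 1.76 in T, 1.23 in M and 1.10 in KPC1. In KPC1 the call rested on libraries of both runs of library numbers in the labels: with libraries 1 to 43 only, with 1 mono-culture of KPC1 among them, the log2 fold change was 1.22 (edgeR adjusted p = 0.163). In N, where mono-culture libraries were at 212, 94.9, 262 and 194 CPM, coculture libraries were at 204, 219.7, 314 and 204 CPM and the log2 fold change was 0.30 ± 0.33 (edgeR adjusted p = 0.514). K had 21.8, 13, 24.6 and 9.81 CPM in mono-culture and 34.9, 19.8, 29 and 30.9 CPM in coculture, which overlapped (log2 fold change 0.73 ± 0.35, edgeR adjusted p = 0.168).

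Chac1, the glutathione-degrading enzyme, rose in 5 of 8 lines. In V its libraries went from 16.8, 11.4, 27.2 and 5.16 CPM to 126, 174, 185 and 105 CPM, the largest change of any member in any line (log2 fold change 3.28 ± 0.38 (SE), 9.73-fold, edgeR adjusted p = 4.32e-10). In M, where it was lowest, it went from 2.83, 2.38, 5.91 and 1.09 CPM to 6.21, 7.24, 17.7 and 9.33 CPM (log2 fold change 1.74 ± 0.44, edgeR adjusted p = 0.00179), so all coculture libraries lay above all mono-culture libraries although none reached 20 CPM. It rose by 1.74 in E, 1.95 in H and 1.90 in T. The values in K, N and KPC1 were 0.42, 0.52 and 0.54 and did not pass.

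Sesn2, which holds mTORC1 down when amino acids such as leucine are short, rose in H, V, T and E. In H it went from 12.3, 13.3, 13.6 and 12.6 CPM to 31, 39, 42.1 and 28.6 CPM (log2 fold change 1.44 ± 0.26 (SE), edgeR adjusted p = 1.75e-05) and in V from 10.9, 10.1, 20 and 8.13 CPM to 35, 47.9, 51 and 44.4 CPM (1.86 ± 0.26). The rise in E was small (0.53 ± 0.25, edgeR adjusted p = 0.0680) and did not pass when replicate 1, 2 or 4 was left out (adjusted p = 0.111, 0.169 and 0.159). In N it was at 37.4, 23.9, 49.1 and 35.2 CPM and 31.4, 33.3, 39.9 and 23.8 CPM, overlapping.

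Within the mono-cultures of these genes the replicates kept a similar order in most lines. Replicate 4 was the lowest of the 4 for Trib3 and for Chac1 in 7 of 8 lines and for Sesn2 in 6 of 8, and replicate 3 was the highest for Sesn2 in 7 and for Atf4 in 6 of 8. In coculture replicate 3 was the highest for Sesn2 in 8 of 8 lines and for Atf4 in 3. There replicate 4 was the lowest for Trib3 and for Chac1 in 3 of 8 and for Sesn2 in 4. Without replicate 4, 47 of the 52 called log2 fold changes kept their call, and without replicate 3, 51.

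**Figure D3:**
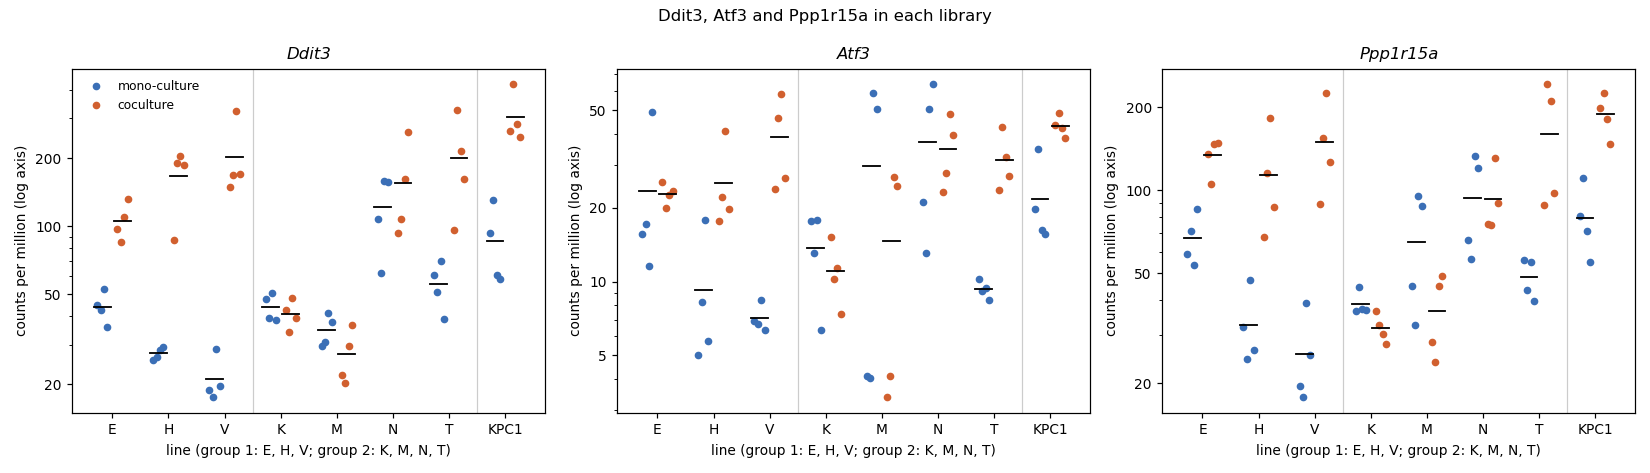
CPM (log axis) of Ddit3, Atf3 and Ppp1r15a in every library for the 8 lines on the x axis, with mono-culture in blue and coculture in orange; points are libraries (n = 4 per line and culture) and bars are means. Coculture libraries of Ddit3 lie above all mono-culture libraries in E, H, V, T and KPC1, and in M the coculture mean of Ppp1r15a lies below the mono-culture mean.

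Ddit3, Atf3 and Ppp1r15a are described together because their responses ran closest across the lines. Ddit3, which encodes CHOP, went from 18.9, 17.6, 28.6 and 19.6 CPM in mono-culture to 148, 168, 324 and 169 CPM in coculture in V (log2 fold change 3.26 ± 0.32 (SE), edgeR adjusted p = 6.71e-12) and from 25.8, 26.6, 28.3 and 29.4 CPM to 86.8, 191, 205 and 187 CPM in H (2.60 ± 0.31, edgeR adjusted p = 6.80e-09). In both clones all 4 coculture libraries were above the mono-culture libraries. It rose by 1.85 in T, 1.83 in KPC1 and 1.26 in E. In K, at 47.6, 39.4, 50.8 and 38.5 CPM and 42.8, 34.3, 48.3 and 39.2 CPM, and in M, at 29.6, 30.7, 41.2 and 37.7 CPM and 22, 20.4, 29.5 and 36.7 CPM, the libraries of the 2 cultures overlapped and the log2 fold changes were -0.10 and -0.36. Mars lies over Ddit3 on the opposite strand and had a median of 145 CPM. Its log2 fold change was 0.84 in V and 0.45 in H, and the strand setting of the counting was not given in the sources used here.

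Ppp1r15a, the subunit through which eIF2α is dephosphorylated, moved in both directions. It rose in V (2.55 ± 0.33, from 19.6, 17.8, 39.2 and 25.4 CPM to 89.4, 155, 226 and 127 CPM), in H (1.80), T (1.72), KPC1 (1.25) and E (0.99). In M it fell, from 45.2, 32.7, 95 and 88.1 CPM to 28.1, 23.8, 45.1 and 49 CPM (log2 fold change -0.84 ± 0.32, edgeR adjusted p = 0.0387), with overlapping libraries, and the call was lost without replicate 3 (adjusted p = 0.118) or replicate 4 (adjusted p = 0.132), the 2 replicates that were high in both cultures. Of all genes, 17.8% rose in at least 1 line and fell in at least 1 other, as Ppp1r15a, Atf5 and Cebpb did among the members.

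Atf3 rose in 3 lines. In V its libraries went from 6.93, 6.71, 8.42 and 6.33 CPM to 23.7, 46.4, 58.2 and 26.4 CPM (log2 fold change 2.45 ± 0.57 (SE), edgeR adjusted p = 2.95e-04), and in T from 10.2, 9.19, 9.44 and 8.43 CPM to 23.6, 42.7, 32.2 and 26.8 CPM (1.75 ± 0.56), both without overlap. In H, at 5.04, 8.25, 17.8 and 5.74 CPM and 17.7, 22.2, 41 and 19.8 CPM, the ranges overlapped and the call (1.44 ± 0.56, edgeR adjusted p = 0.0369) was lost without replicate 4 (adjusted p = 0.119) and with libraries 1 to 43 only (adjusted p = 0.120). In E 1 mono-culture library stood apart, 15.6, 17.1, 11.5 and 49.1 CPM against 25.5, 19.9, 22.5 and 23.4 CPM in coculture, and the log2 fold change turned from -0.027 to 0.62 without replicate 4, neither of which passed the test. M, at 4.12, 4.05, 58.9 and 50.7 CPM and 3.38, 4.13, 26.7 and 24.6 CPM, had the lowest estimate, -1.001 ± 0.54 (edgeR adjusted p = 0.158).

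**Figure D4:**
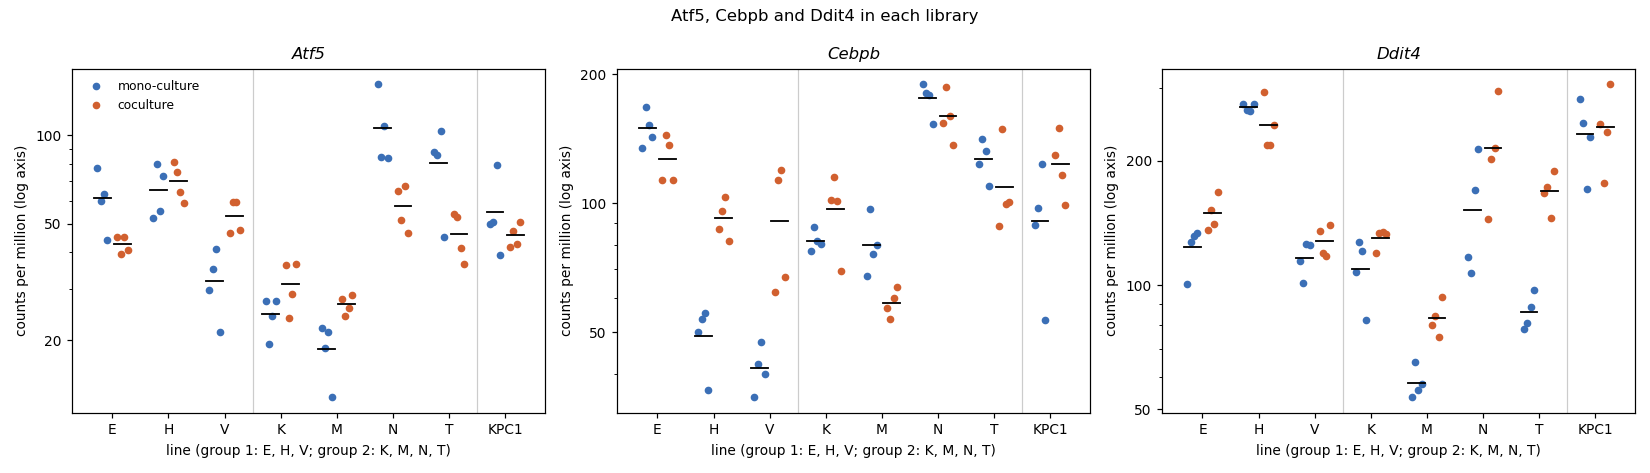
CPM (log axis) of Atf5, Cebpb and Ddit4 in every library for the 8 lines on the x axis, with mono-culture in blue and coculture in orange; points are libraries (n = 4 per line and culture) and bars are means. Coculture lies below mono-culture for Atf5 in N, where the 4 libraries of each culture do not overlap, and above it for Ddit4 in E, M and T, of which E did not pass the test.

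The remaining members, Atf5, Cebpb and Ddit4, changed in fewer lines or in both directions. Atf5 fell in 3 lines and rose in 2. In N it went from 149.6, 84.7, 108 and 83.7 CPM to 64.6, 51.6, 67.5 and 46.3 CPM (log2 fold change -0.89 ± 0.20 (SE), edgeR adjusted p = 7.65e-04) and in T from 87.8, 85.8, 103 and 44.9 CPM to 54, 52.6, 41.3 and 36.3 CPM (-0.80 ± 0.20, edgeR adjusted p = 7.30e-04), where 1 mono-culture library overlapped. With libraries 1 to 43 only the fall in T did not pass (-0.49, adjusted p = 0.180). Atf5 also fell in E (-0.52 ± 0.21), a call lost without replicate 1 (adjusted p = 0.135). It rose in V from 29.7, 35.1, 40.9 and 21.4 CPM to 46.3, 59.2, 59.2 and 47.5 CPM (0.74 ± 0.21) and in M by 0.50 ± 0.21, lost without replicate 2 or 4 (adjusted p = 0.130 and 0.258).

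Cebpb rose in V from 35.2, 42.2, 47.4 and 39.8 CPM to 62, 113, 119.7 and 67.2 CPM (1.14 ± 0.18, edgeR adjusted p = 5.10e-07) and in H from 50.1, 53.6, 55.3 and 36.7 CPM to 87.1, 96, 103 and 81.6 CPM (0.91 ± 0.18), the 2 lines with the lowest mono-culture means, and its libraries did not overlap in either. Its rise in KPC1 (0.44 ± 0.18) was lost without replicate 1, 2 or 4 (adjusted p = 0.160, 0.171 and 0.132) and with libraries 1 to 43 only (0.045, adjusted p = 0.930). The fall in M (-0.45 ± 0.18) was lost without replicate 2 (adjusted p = 0.258) and with libraries 1 to 43 only (adjusted p = 0.216).

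Ddit4, which represses mTORC1 through TSC2, rose in T from 78.4, 81, 88.4 and 97 CPM to 167, 173, 146 and 188 CPM (0.97 ± 0.16, edgeR adjusted p = 1.44e-06), in M from 53.6, 65, 55.8 and 57.5 CPM to 80.1, 84, 74.7 and 93.7 CPM (0.52 ± 0.16) and in N by 0.50 ± 0.16. The first 2 rises showed no overlap, and that in N was lost without replicate 2 (adjusted p = 0.149). Ddit4 did not pass the test in any clone of group 1. Of the lines in which it rose, Ddit3, Atf3 and Ppp1r15a rose in T and did not in M and N.

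The response to coculture differed between the 8 lines for all 10 members, with edgeR adjusted p-values from 2.86e-10 for Ddit3 to 0.00143 for Ddit4. Of all 14134 genes, 71.3% also differed. V and T had the most members called, 9 each, and K had 0. Between V and K, the log2 fold change of Ddit3 was 3.26 ± 0.32 in V and -0.10 ± 0.30 in K, and that of Chac1 was 3.28 ± 0.38 and 0.42 ± 0.38.

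A response shared by the lines was tested on the 16 sums of counts per line and culture, with the line as a covariate, so that the 8 lines and not the libraries were the replicates. In this fit 7 of 10 members rose and 0 fell, against 27.2% and 27.4% of the 14478 genes tested (54.6% called in all), and the median log2 fold change was 0.69 over the members against -0.0009 over all genes. Chac1 rose by 1.504 ± 0.31 (SE, edgeR adjusted p = 0.00438) and Trib3 by 1.48 ± 0.26 (edgeR adjusted p = 0.00254), a fold of 2.84 and 2.79. Ddit3 rose by 1.33 ± 0.41, Sesn2 by 0.74 ± 0.20, Atf4 by 0.60 ± 0.16 and Ddit4 by 0.32 ± 0.11. Ppp1r15a rose by 0.91 ± 0.37 (edgeR adjusted p = 0.0651), but it did not pass when line E, H, V, T or KPC1 was left out (adjusted p = 0.120, 0.137, 0.134, 0.149 and 0.119). Atf3 (0.64 ± 0.37, edgeR adjusted p = 0.178), Cebpb (0.20 ± 0.18) and Atf5 (-0.099 ± 0.19) did not pass, and Atf3 passed once line M was left out (0.87, adjusted p = 0.0677).

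Fibroblast transcripts were present in the sorted coculture libraries. Of the 19 fibroblast markers tested, 15 rose and 1 fell in the shared response, against 27.2% and 27.4% of all genes. The summed level of the 20 markers in the table was 5938 to 20271 CPM in mono-culture and 6288 to 19798 CPM in coculture. The tumor lines themselves expressed several of them, with highest mono-culture line means of 7221 CPM for Vim and 9784 CPM for Fn1. In coculture these 2 averaged 5510 and 5804 CPM. Col1a1 and Col1a2 had highest mono-culture line means of 31.6 and 3.5 CPM and averaged 272 and 186 CPM in coculture. Between 5 and 9 of the 20 were at 0 in a mono-culture library and at most 1 in a coculture library. Dcn, Fap, Postn, Thy1 and Pdpn, at most 1 CPM in every mono-culture line mean, summed to means of 63.5 (V) to 104 CPM (N) in coculture. In mono-culture their summed means were at most 0.0743 CPM. Lum, at 0 CPM in every mono-culture line mean, averaged only 0.102 CPM in coculture and was left out of the sum. By line, the coculture sums were 63.5 CPM in V, 64.3 in E, 66.5 in KPC1 and 74.1 in H. They were 74.8 CPM in M, 89.5 in T, 93.7 in K and 104 in N. Members called, in that order of lines, numbered 9, 7, 4, 8, 6, 9, 0 and 2. The part of fibroblast RNA in the members' levels was not tested.

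Markers of the tumor cells and of other cell types also moved with the culture. Of 8 epithelial markers tested in the shared response, 1 rose and 3 fell, against 27.2% and 27.4% of all genes. The summed level of the 10 in the table went from a mean of 3745 to 2654 CPM in H, 3253 to 2228 in V, 4291 to 3065 in T and 3299 to 2548 in KPC1 (n = 4 libraries each), lines in which 4 to 9 members were called. In E, with 7 members called, it went from 3820 to 3565 CPM, and in N, with 2, from 4251 to 3818 CPM. In K, with 0 members called, it went from 3711 to 3980 CPM, and in M, with 6, from 3322 to 3978 CPM. Of 3 immune and endothelial markers tested, 2 rose and 1 fell, and the summed level of the 10 in the table was 5.56 to 21.7 CPM in the mono-culture libraries and 9.63 to 58.5 CPM in coculture, with its mean going from 7.55 to 42 CPM in H. Cd68 rose by 3.14 in H, 2.70 in V and 1.84 in KPC1 on the log2 scale, and by 1.37 in the shared response (edgeR adjusted p = 0.0108). The part of these cells or markers in the members' levels was not tested.

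Across the 8 lines the responses of some members ran closely together. Pearson's r between log2 fold changes was 0.99 for Ddit3 and Ppp1r15a, 0.96 for Atf3 and Ppp1r15a and 0.95 for Atf3 and Ddit3, and it was 0.95 for Atf4 and Trib3, 0.95 for Trib3 and Chac1 and 0.93 for Atf4 and Chac1 (n = 8 lines). Over the 45 pairs of members the median r was 0.64, and the lowest, -0.75, was between Ddit4 and Cebpb. Ddit4 had a negative r with each of the other members, down to -0.47 with Atf5 among the remaining pairs. These values share libraries and scaling factors between genes and are given as a description.

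The genes whose 16 means per line and culture were most like each member, among 10176 genes with a mean of at least 5 CPM, were other genes of the ATF4 program for several members. For Atf4 they were Mthfd2, a mitochondrial folate enzyme (r = 0.98), and Gars, the glycyl-tRNA synthetase (r = 0.98). Trib3 was most like Asns, asparagine synthetase (r = 0.99), and Gpt2, a mitochondrial alanine transaminase (r = 0.99), Chac1 most like Mthfd2 (r = 0.99) and the glycine transporter gene Slc6a9 (r = 0.98), and Sesn2 most like Mthfd2 (r = 0.97) and Trib3 (r = 0.97). Ddit3 was most like Lonp1, the mitochondrial matrix protease (r = 0.97), and Cyb5r1 (r = 0.96), Ppp1r15a most like Lonp1 (r = 0.94) and Atf3 (r = 0.94), and Atf3 most like Ppp1r15a (r = 0.94) and Ddit3 (r = 0.93). The remaining members had less similar partners: Cebpb with Lin54 (r = 0.92) and F3 (r = 0.91), Ddit4 with Ino80c (r = 0.93) and 5430417L22Rik (r = 0.91), and Atf5 with Champ1 (r = 0.86) and Adcy3 (r = 0.86).

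The study sorts the clones into group 1 and group 2, and the members were compared between them on the counts summed per clone, 3 clones against 4. In mono-culture 0 of 10 members differed, with the lowest edgeR adjusted p at 0.888, and 0 of 14829 genes were called (0%, with 766 at an unadjusted p under 0.05, and 117 called by DESeq2). Of the members, 0 had an unadjusted p under 0.05 and 0 were called by DESeq2 or by limma. The clones of group 1 averaged 452 ± 75.9 CPM of Atf4 (SD, n = 3) against 488 ± 306 CPM for those of group 2 (SD, n = 4), a log2 fold change of -0.11 ± 0.46 (SE). Group 2 spanned the whole range, from M at 215 to N at 912 CPM, with group 1 between 393 and 538 CPM. Without clone N the estimates of Atf4, Trib3, Sesn2 and Atf5 turned positive (0.38, 0.38, 0.38 and 0.37), that of Chac1 went from 0.070 to 0.88, and none passed the test. The largest differences were those of Ddit3, -1.03 ± 0.49 (unadjusted p = 0.0712), where group 1 averaged 31.2 ± 12.2 CPM against 63.7 ± 39.3 CPM, and of Atf3, -0.76 ± 0.60. Of the 10 estimates 2 were positive, those of Chac1 and Ddit4, and the median was -0.37. No member had its clones apart between the groups in mono-culture or in coculture, where 2.24% and 4.24% of genes had all of group 1 above group 2 and 3.05% and 4.72% all of it below.

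In coculture 0 of 10 members differed between the groups (lowest edgeR adjusted p 0.612), against 0.00679% of genes called, 1 of 14737, with 1263 at an unadjusted p under 0.05 and 193 called by DESeq2. Of the members, 0 had an unadjusted p under 0.05 and 0 were called by DESeq2 or limma. The estimates were positive for 9 of 10 members and their median was 0.53. For Chac1, group 1 averaged 109.8 ± 37 CPM against 45.8 ± 39.9 CPM (SD, n = 3 and 4 clones), a log2 fold change of 1.27 ± 0.74 (SE). Atf4 averaged 917 ± 178 CPM and 641 ± 403 CPM, and Trib3 at 199 ± 18.3 CPM and 136 ± 127 CPM, again with N and T of group 2 within or above the range of group 1.

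The difference in coculture response between the groups was tested as an interaction, and 0 of 10 members passed (0.00637% of 15700 genes called, 1 gene, and 187 by DESeq2). The estimate was larger in group 1 for 9 of 10 members and the median was 0.98. For Ddit3 the mean log2 fold change of the lines was 2.37 ± 1.02 for group 1 (SD, n = 3) against 0.44 ± 0.99 for the clones of group 2 (SD, n = 4), an interaction of 1.97 ± 0.64 (SE, unadjusted p = 0.0143, edgeR adjusted p = 0.637), and DESeq2 called it. Ppp1r15a had 1.78 ± 0.78 against 0.14 ± 1.10, and Trib3 2.25 ± 0.63 and 1.01 ± 0.63. Ddit4 alone had the opposite sign, -0.45 ± 0.19. Of the 10 members, 6 had an unadjusted p under 0.05, Ddit3, Trib3, Ppp1r15a, Atf4, Ddit4 and Cebpb, as did 1196 of the 15700 genes tested. Clone T of group 2 lay within the range of the group 1 clones, with Ddit3 at 1.85 and Ppp1r15a at 1.72, whereas K, M and N lay between -0.36 and 0.36 for Ddit3.

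**Figure D5:**
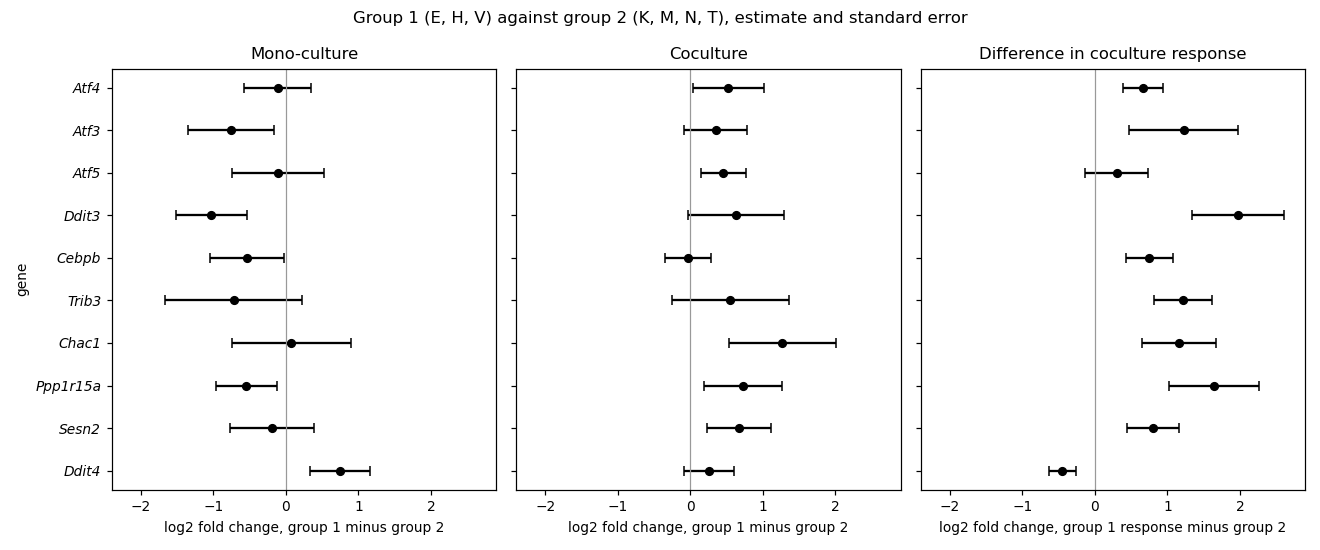
Log2 fold change of group 1 (E, H, V) minus group 2 (K, M, N, T) with its standard error (x axis) for each of the 10 genes (y axis), from the sums per clone: in mono-culture, in coculture, and for the coculture response. In mono-culture 2 of 10 points lie right of 0, in coculture 9 of 10, and in the difference in response 9 of 10, with Ddit4 at -0.45; none passed the test at an adjusted p under 0.1.

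The surrounding pathway was followed through lists of genes written from general knowledge, with earlier results of these data known. Of 49 tested ATF4 targets outside the 10 members, 41 rose and 3 fell in the shared response. In that fit 27.2% of all genes rose and 27.4% fell. The median log2 fold change of the targets was 0.73, against -0.0009 over all genes. Asns rose by 1.30 ± 0.18 (SE, edgeR adjusted p = 0.00126), Aldh18a1, an enzyme of proline synthesis, by 1.31 ± 0.17 (edgeR adjusted p = 0.0011) and Yars, the tyrosyl-tRNA synthetase, by 0.82 ± 0.13. By line, the targets that rose numbered 46 of 50 in V, 45 in H, 39 in T and 38 in E. They numbered 27 in KPC1, 26 in M, 19 in N and 10 in K, and 8 fell in M. Of all genes, 30% rose in V, 21.4% in H, 31.5% in T and 32.1% in E. The shares that rose were 20.1% in KPC1, 21.6% in M, 20% in N and 12.5% in K, and 17.3% fell in M. In N, 19 targets and 1 member rose, and Asns was among the 19 (0.78, edgeR adjusted p = 0.0248), while Atf4, Trib3 and Chac1 did not pass. The group comparison in mono-culture called 0 of 49 targets; the lowest p belonged to Gdf15, a secreted stress hormone (-3.16 ± 0.62, unadjusted p = 0.00129, edgeR adjusted p = 0.888).

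Upstream of Atf4, the list of ISR machinery held the 4 eIF2α kinases and the subunits of eIF2, its exchange factor eIF2B and its phosphatases. In the shared response 12 of 21 rose and 1 fell, against 27.2% and 27.4% of all genes, with a median of 0.17. Those that rose included the eIF2 subunit genes Eif2s1 (0.55 ± 0.09, edgeR adjusted p = 0.00182) and Eif2s2 (0.72 ± 0.12, edgeR adjusted p = 0.00206) and the eIF2B subunit gene Eif2b2 (0.56 ± 0.09, edgeR adjusted p = 0.00184). The 4 kinase genes were singled out after their values were seen: Eif2ak2 (PKR) rose by 0.27 (edgeR adjusted p = 0.089), while Eif2ak1 (HRI), Eif2ak3 (PERK) and Eif2ak4 (GCN2) had estimates of 0.014, -0.048 and 0.093 and did not pass.

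Of 22 genes of the unfolded protein response, the endoplasmic reticulum's own stress program, 14 rose and 1 fell (median 0.37), with Hyou1 at 0.78 ± 0.12 (edgeR adjusted p = 0.00199) and Pdia4 at 0.44 ± 0.05. Of 10 mitochondrial chaperones and proteases, 8 rose and 0 fell (median 0.50), with Htra2 at 0.76 ± 0.11 (edgeR adjusted p = 0.00156) and Hspd1 at 0.55 ± 0.08. Of 17 mTORC1 regulators other than Sesn2 and Ddit4, 5 rose and 7 fell (median -0.18). By smallest p, the first was Gatsl3 (Castor1), which rose by 0.78 ± 0.10 (edgeR adjusted p = 0.00101). After it came Tsc1 at -0.37 ± 0.07 (edgeR adjusted p = 0.00405) and Gatsl2 (Castor2) at -0.84 ± 0.21 (edgeR adjusted p = 0.0107). Sesn2 and Ddit4 rose in the same fit, in which 27.2% of all genes rose and 27.4% fell. The mTORC1 list was not split into genes that raise and genes that lower mTORC1 activity.

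Other lists stood as follows in the shared response, in which 27.2% of all genes rose and 27.4% fell. Of 27 further leucine zipper genes, 8 rose and 10 fell, among them Fosl1 (1.14 ± 0.16) and Fos (-1.61 ± 0.29). Of 20 immediate-early genes, 0 rose and 8 fell (median -0.37). In clone V 8 rose and 2 fell (median 0.26), against 30% and 31.5% of all genes. The summed level of the 20 was 1000 to 6791 CPM in mono-culture and 1139 to 3439 CPM in coculture. Of 20 hypoxia genes 11 rose and 2 fell (median 0.37), of 20 p53 targets 9 rose and 5 fell (median 0.27), and of 11 tested CEBPB targets 3 rose and 3 fell (median -0.21). The part of these programs in the members' levels was not tested.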

How the data were processed

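Tumor cells of 8 lines in 2 cultures, with 4 libraries each (64 in all), were sequenced as 76 base paired-end reads of strand-specific poly(A) libraries. The authors deposited whole-number counts for 39017 genes, without normalization, and RPKM values for 49585 genes. The submitters' notes name featureCounts, edgeR and the mm10 genome, and the aligner is not given in the sources used here. Totals were 1.12e+07 to 2.13e+07 counts per library, and these totals and the 4 libraries of each line and culture set the precision. The count of unused sample columns was 0.

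Samples were grouped by the line and culture in their labels, and clones by the study's 2 groups, E, H and V against K, M, N and T. The genes and the lists were chosen with earlier results of these data known. Lists were written by hand from general knowledge. Counts were analysed with edgeR 4.0.16 in R 4.3.3: TMM scaling, filterByExpr and the quasi-likelihood test with Benjamini-Hochberg adjustment over all genes tested and a threshold of 0.1. Differences between lines and the response of each line were fitted on 64 libraries in 16 groups, which share 1 estimate of the spread. The shared response was fitted on 16 sums with line as a covariate, and the groups on 7 sums per culture or 14 for the interaction, without KPC1. Tests were two-sided. Scripts were tested on simulated data.

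Alternatives were DESeq2 1.42.0, its size factors, no filter, a threshold of 0.05, limma 3.58.1 on log2(RPKM + 1) and log2(RPKM + 0.1), leaving out each replicate number or line, the replicate block, the run of library numbers (1 to 43, or 44 to 64) as a covariate, libraries 1 to 43 only, and libraries as replicates in the shared response. K had no mono-culture among libraries 1 to 43. All 10 members were named, with up to 3 genes of a list by the smallest p in the shared response, up to 2 by that between groups in mono-culture, and the 2 genes most like each member over 16 means. Ddit3, Atf5, Cebpb and Ppp1r15a overlap another gene on the opposite strand, and of the overlapping genes Mars, Tmem189, Il4i1 and Tulp2 had medians of 145, 20.3, 2.23 and 0.438 CPM. Promoter sequences and starts are those of RefSeq on GRCm38.p6, which held all 10 members, and gene positions those of GENCODE on GRCm38. Python 3.11.15, pandas 2.3.3 and matplotlib were used for sequences and plots. An allele of the mouse and a marker gene are not reported here.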

Additional observations from a re-analysis of the deposited data

Results flagged for a closer look

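Among the 180 groups of values examined with Dixon's test (160 of 4 libraries, the 10 genes in 8 lines and 2 cultures, and 20 of 8 line means), 7 held 1 value far from the others, where chance gives about 1 in 20, or 9. Atf4 in line V in coculture was at 945 CPM in replicate 4, with the other libraries between 1122 and 1152 CPM. Atf3 in line E in mono-culture was at 49.1 CPM in replicate 4, with the other libraries between 11.5 and 17.1 CPM. Ddit3 in line H in coculture was at 86.8 CPM in replicate 1, with the other libraries between 187 and 205 CPM. Ddit3 in line V in coculture was at 324 CPM in replicate 3, with the other libraries between 148 and 169 CPM. Trib3 in line N in coculture was at 314 CPM in replicate 3, with the other libraries between 204 and 219.7 CPM. Ddit4 in line K in coculture was at 119.8 CPM in replicate 1, with the other libraries between 133 and 135 CPM. Ppp1r15a in line K in mono-culture was at 44.5 CPM in replicate 2, with the other libraries between 36.6 and 37.2 CPM.

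The other pattern is that the response to coculture differed between the 8 lines, by edgeR's quasi-likelihood test on the interaction of line and culture, for each of the 10 genes. The adjusted p-values were 7.30e-06 for Atf4, 0.00125 for Atf3, 3.43e-06 for Atf5, 2.86e-10 for Ddit3, 1.54e-04 for Trib3, 2.28e-05 for Chac1, 6.39e-05 for Sesn2, 0.00143 for Ddit4, 2.58e-08 for Ppp1r15a and 3.95e-07 for Cebpb. The same test called 71.3% of all genes.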

How the results depend on the processing

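Of 52 called log2 fold changes of the members, 0 turned direction under any alternative run. DESeq2, its size factors, the unfiltered fit and the replicate block kept all 52 calls, limma 51 of 52 at either pseudocount, a threshold of 0.05 49, libraries 1 to 43 only 47, the library run as a covariate 44 of the 45 it covers, and leaving out a replicate number 47 to 51. Members called ranged, with each replicate left out in turn, from 5 to 7 in E, 7 to 8 in H, 4 to 6 in M, 1 to 2 in N, 3 to 4 in KPC1 and 7 to 8 in the shared response, and with each line left out from 6 to 8 in the shared response and from 0 to 0 in the 3 group comparisons. With libraries 1 to 43 only, 2 members were called in KPC1 in place of 4. DESeq2 called 1 member in the interaction. By the rule used the replicate numbers were not taken as pairs, since 18 of 32 same-number pairs of cultures correlated above 0.1. The lowest correlated at -0.069. In the data same numbers did go together for most libraries. Out of 4 numbers, 24 of 32 mono-culture and 21 of 32 coculture libraries correlated best with their own number. A pairing is therefore not excluded, and the main fits leave it out. With the replicate block, 2 members were called in K in place of 0, 8 in M in place of 6 and 5 in KPC1 in place of 4. For the shared response the blocked run took the 64 libraries, not the lines, as replicates, and called 9 members in place of 7. Libraries as replicates without the block kept all 7 calls and added 2 of the 3 members not called. The block's own part in the 9 therefore cannot be told apart from the change of replicate. Over all genes, DESeq2 called 117, 193 and 187 genes in place of 0, 1 and 1 between the groups in mono-culture, in coculture and in the interaction, and without line E the edgeR counts were 217, 19 and 48. In K, 1920 genes were called without replicate 3 and 1851 without replicate 4, in place of 2894, in M 3485 without replicate 4 in place of 5495, and in KPC1 2763 with libraries 1 to 43 only in place of 5534. The remaining counts that moved by over 1.5 times stayed between 0 and 4 genes. The cause was not tested for any of these. A further 54 values, none called, turned in sign. With limma on log2(RPKM + 1) the value was 0.19 for Atf3 in E, 0.052 for Atf3 in N, 0.037 for Atf4 in K, 0.076 for Atf4 between groups in mono-culture, 0.15 for Atf5 between groups in mono-culture, 0.034 for Cebpb between groups in coculture, -0.014 for Ddit4 in KPC1, 0.00050 for Ppp1r15a in N and 0.011 for Trib3 between groups in mono-culture. With limma on log2(RPKM + 0.1) the value was 0.23 for Atf3 in E, 0.071 for Atf3 in N, 0.037 for Atf4 in K, 0.077 for Atf4 between groups in mono-culture, 0.17 for Atf5 between groups in mono-culture, 0.035 for Cebpb between groups in coculture, -0.014 for Ddit4 in KPC1, 0.0022 for Ppp1r15a in N, 0.021 for Sesn2 between groups in mono-culture and 0.058 for Trib3 between groups in mono-culture. Without the filter the value was 0.0086 for Ppp1r15a in N. With the library run as a covariate the value was 0.0092 for Atf3 in N and 0.068 for Ppp1r15a in N. With libraries 1 to 43 only the value was 0.051 for Atf3 in N, 0.046 for Cebpb between groups in coculture, 0.064 for Ppp1r15a in N and -0.019 for Sesn2 in KPC1. With the replicate block the value was 0.010 for Atf3 in E. With each replicate left out in turn, the ranges that crossed 0 were -0.27 to 0.62 for Atf3 in E, -0.28 to 0.24 for Atf3 in N, -0.13 to 0.050 for Atf4 in K, -0.055 to 0.24 for Atf5 in H, -0.45 to 0.0047 for Atf5 in KPC1, -0.12 to 0.016 for Cebpb between groups in coculture, -0.032 to 0.16 for Chac1 between groups in mono-culture, -0.092 to 0.21 for Ddit4 in KPC1 and -0.10 to 0.14 for Ppp1r15a in N. With each line left out in turn, the ranges that crossed 0 were -0.35 to 0.38 for Atf4 between groups in mono-culture, -0.40 to 0.37 for Atf5 between groups in mono-culture, -0.0096 to 0.64 for Atf5 in the group interaction, -0.22 to 0.011 for Atf5 in the shared response, -0.23 to 0.24 for Cebpb between groups in coculture, -0.32 to 0.88 for Chac1 between groups in mono-culture, -0.081 to 0.47 for Ddit4 between groups in coculture, -0.53 to 0.38 for Sesn2 between groups in mono-culture and -1.07 to 0.38 for Trib3 between groups in mono-culture.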
